A study of Homo sapiens with 5 samples.

Results

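The nuclear pore genes and the genes of nuclear transport receptors were described in HEK293, a human cell line that was established from embryonic kidney. Members were chosen by symbol in the deposited table: numbered nucleoporins (NUP), importin alpha genes (KPNA), importins (IPO), exportins (XPO) and transportins (TNPO), together with NUPL1, NUPL2, KPNB1, RAN, RANBP1, RANBP2, RCC1, CSE1L, TPR, RAE1, SEH1L, SEC13 and NUTF2. The rule found 54 of 24497 gene rows, and it used no measured value. All 5 libraries hold untreated cells grown in DMEM with glutamine and serum, and the labels differ only in the batch, with 2 libraries in batch A and 3 in batch B. Each library carried cDNA equal to 100 cells, taken from a lysate of 1000 cells, and was read from the 5' ends of transcripts after oligo-dT priming. The labels do not state whether libraries came from separate cultures, and p-values then speak only of the spread among these 5 libraries, which may be technical.

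Gene counts came to 373687 to 803168 per library, so that a single count was worth 1.25 to 2.68 CPM, the counts of a gene scaled to a total of 1e+06 gene counts. Libraries are called by the number that ends their column, which is not taken as a replicate number. Spike-in RNAs took 0.259% to 0.264% of counts in batch A and at most 0.00348% in batch B, where their counts were 1 to 19 a library, although the protocol gives 20000 spike-in molecules per cell for both batches. The cause of this difference was not tested. All 8 markers listed for the HEK293 line were detected, VIM with 205 to 343 counts a library, PAX2 with 1 to 4 and INA with 0 to 8. Their summed level was 719 to 731 CPM in batch A and 768 to 859 CPM in batch B. Without VIM, singled out after its values were seen, the other 7 summed to 280 to 314 CPM in batch A and 268 to 310.4 CPM in batch B, and the mean level of NEFM went from 57.0 CPM (batch A) to 37.8 CPM (batch B). Of 4 markers of other cell types that were in the table, CD3E and ALB were at 0, COL3A1 had at most 2 counts a library and COL1A1 at most 13. The summed level of these 4 was 4.37 to 11.2 CPM in batch A and 8.69 to 21.9 CPM in batch B. The part of either marker list in the differences between batches was not tested.

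The nuclear pore complex is a ring-shaped channel through the nuclear envelope. Its scaffold is built from the Y complex and the inner ring, its central channel is filled by nucleoporins rich in phenylalanine-glycine repeats, and filaments extend from it to the cytoplasm and a basket into the nucleus. Importins and exportins carry cargo through the channel, and the small GTPase RAN gives transport its direction: RAN bound to GTP in the nucleus releases import cargo and loads export cargo. Cells that divide rapidly need both new pores and a steady supply of these receptors.

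Between the batches, 4 of the 54 members passed the test and all 4 were lower in batch B: NUP35, an inner ring nucleoporin, fell 2.19-fold, NUPL2, a nucleoporin of the cytoplasmic side, 1.59-fold, KPNA2, an importin alpha, 1.33-fold, and NUTF2, the carrier that returns RAN to the nucleus, 1.30-fold. In pooled cells, a lower level in every cell and a smaller share of cells with the transcript cannot be told apart. The other 50 members did not pass, among them all 11 genes of the importin beta family, all 7 exportins and all 8 members of the Y complex. Over all 9215 genes tested by the quasi-likelihood F test of edgeR, at an adjusted p (Benjamini-Hochberg) under 0.05, 4.20% passed, 2.05% as lower and 2.15% as higher in batch B. The 4 calls are 7.41% of the members. None of the members was higher by this test. An unadjusted p under 0.05 was reached by 22.2% of the members and 16.4% of all genes tested. Of these members, NUP210 and RANBP2 were higher and 10 lower, and directions at this cut were not counted over all genes. DESeq2's Wald test called KPNA2 and NUTF2 among the 38 members to which it gave an adjusted p, and none as higher, where it called 3.52% of all genes given one. NUP35 and NUPL2 were not among these 38, so this test made no decision on them.

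The median log2 fold change of the members, batch B minus batch A, was 0.02, against 0.0040 over all genes tested, and 27 members had a positive and 27 a negative value. The libraries of the batches did not overlap in CPM for 15 members (27.8%), against 31.3% of all genes tested. Of the 54 members, batch B was lower without overlap in 12 and higher in 3, namely RANBP2, NUP210 and IPO9. Of all 9215 genes tested, it was lower in 1636 (17.8%) and higher in 1246 (13.5%). Together the members took 0.839% ± 0.0228 of gene counts (SD, n = 2) for batch A and 0.796% ± 0.0152 (SD, n = 3) for batch B, and the highest library of batch B, at 0.808%, lay below the lowest of batch A, at 0.823%. This sum includes the 4 members called as lower. Of its difference of -0.0437 percentage points, -0.0180 lay in the importin alpha genes and -0.0158 in the Ran system, which hold KPNA2 and NUTF2. The exportins differed by -0.0003 points and the importin beta family by less, and the nuclear basket and NUP210 were higher in batch B. The count of calls depended on which libraries were kept, and so did the count over all genes. Leaving out library 2 of batch B left 0 members called, and 202 of 8995 genes against 387 of 9215 with all libraries. In that fit edgeR gave 9 members an unadjusted p under 0.05, against 12 with all libraries. Leaving out either library of batch A, which left a single library in that batch, also gave fewer calls, among the members and over all genes.

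**Figure D1:**
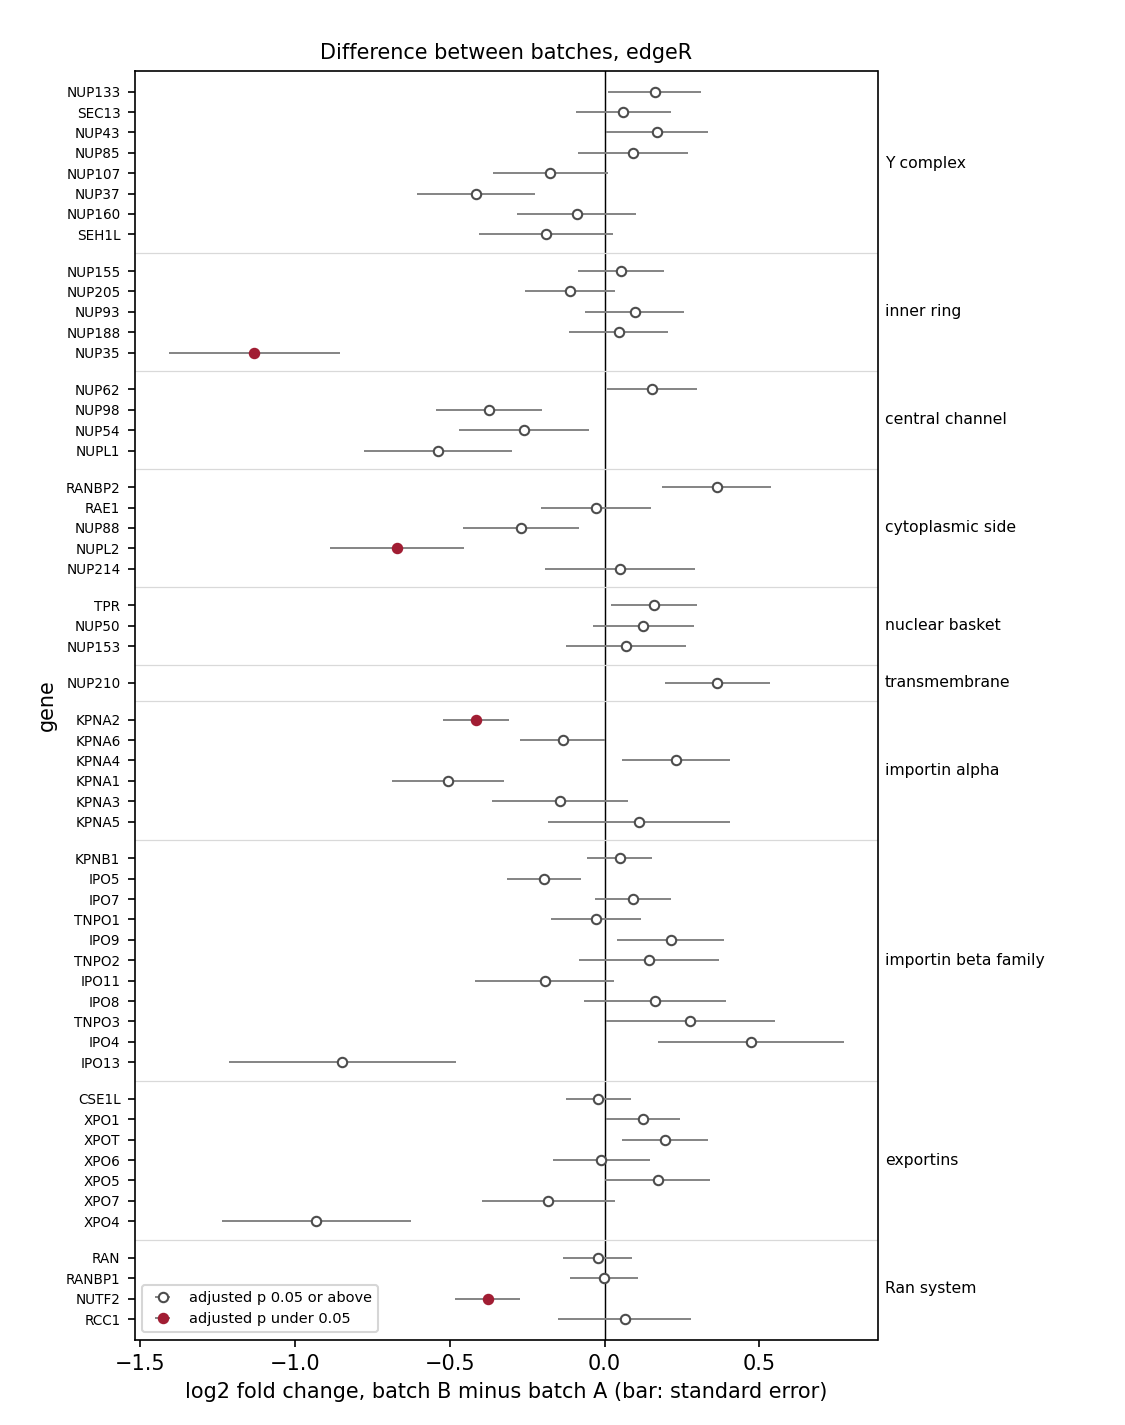
Log2 fold change of each member between the batches (x axis, batch B minus batch A, edgeR, bars are standard errors), with genes on the y axis grouped by role. The 4 filled points, NUP35, NUPL2, KPNA2 and NUTF2, passed an adjusted p of 0.05 and all lie left of 0.

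NUP35 anchors the inner ring to the membrane of the nuclear envelope. It stood at 68.4 and 54.8 CPM in batch A libraries 2 and 3, and at 21.4, 19.1 and 37.9 CPM in batch B libraries 1, 2 and 3. The batches did not overlap, but the count behind these levels was small, with 8, 11 and 26 counts in batch B. The log2 fold change was -1.13 (SE 0.28, edgeR adjusted p = 0.00294). Without batch A library 2 it was -0.95 (edgeR adjusted p = 0.162) and without batch B library 2 it was -0.92 (edgeR adjusted p = 0.0825). The other 3 fits that left out a library kept the call.

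KPNA2 encodes the importin alpha that is typical of proliferating cells and binds the classical nuclear localization signal of cargo. Its levels were 562 and 507 CPM in batch A libraries 2 and 3 and 407, 382 and 394 CPM in batch B libraries 1, 2 and 3. All 3 libraries of batch B lay below both of batch A, and they lay close together. The log2 fold change was -0.42 (SE 0.11, edgeR adjusted p = 0.0057), and -0.42 by DESeq2 (adjusted p = 0.0147). Without batch A library 2 the edgeR value was -0.32, in a fit left with a single library of that batch. Without batch B library 2 it was -0.39, near the value with all libraries (edgeR adjusted p = 0.0853). The call was lost in both fits, and fewer genes were called in them over all genes as well.

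NUTF2 is the transport factor that carries RAN bound to GDP back into the nucleus. It was measured at 492 and 508 CPM in batch A libraries 2 and 3 and at 391, 354 and 393 CPM in batch B libraries 1, 2 and 3, again without overlap. The log2 fold change was -0.38 (SE 0.11, edgeR adjusted p = 0.0158). Leaving out library 2 or library 3 of batch A ended the call (-0.37 in both fits, edgeR adjusted p = 0.136 and 0.144), as did leaving out library 2 of batch B (-0.33, edgeR adjusted p = 0.178). When libraries were thinned to the depth of the shallowest, the value was -0.22 (edgeR adjusted p = 0.427).

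NUPL2 binds the mRNA export factor GLE1 on the cytoplasmic side of the pore. Batch A libraries 2 and 3 had 68.4 and 98.4 CPM, and batch B libraries 1, 2 and 3 had 48.2, 62.6 and 45.2 CPM. The gap between the batches, from 62.6 to 68.4 CPM, was narrower than the distance between the libraries of batch A. The log2 fold change of -0.67 (SE 0.22, edgeR adjusted p = 0.0495) lay at the threshold. The call was kept in 3 of 13 alternative fits, and without batch A library 3 the value was -0.39 (edgeR adjusted p = 0.628).

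**Figure D2:**
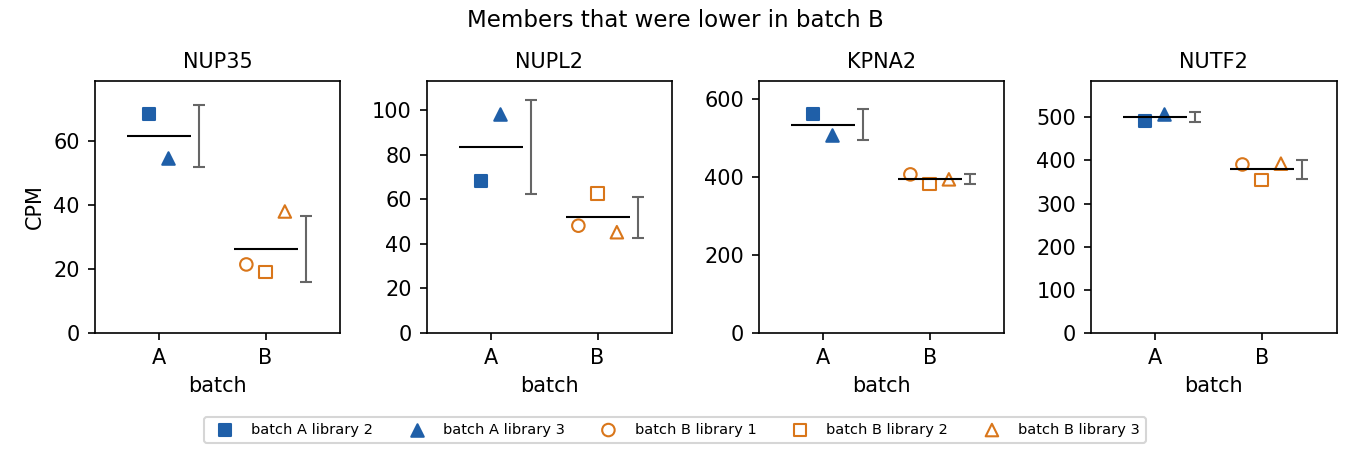
CPM of NUP35, NUPL2, KPNA2 and NUTF2 (y axis from 0, one panel a gene) in each library of batch A (filled) and batch B (open), with horizontal lines for the batch means and bars for the SD. In each panel the 3 libraries of batch B lie below both libraries of batch A.

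Since reads came from 5' ends, the bases just upstream of the start sites of these 4 genes are shown, so that a reader can compare the promoters of the members that were lower together. The stretches are the 200 bases before the start, 5' to 3' on the plus strand, from RefSeq on GRCh38.p14, a later build than the hg19 and GRCh37 named for the counts. They lie at chr2:183124243-183124442 (NUP35), chr7:23181848-23182047 (NUPL2, listed as NUP42), chr17:68035535-68035734 (KPNA2) and chr16:67846733-67846932 (NUTF2, the first of 2 start sites listed). Capitals mark CCAAT, the letters of the CCAAT box, and CCGGAAG, the letters that ETS factors recognise, on either strand.
NUP35: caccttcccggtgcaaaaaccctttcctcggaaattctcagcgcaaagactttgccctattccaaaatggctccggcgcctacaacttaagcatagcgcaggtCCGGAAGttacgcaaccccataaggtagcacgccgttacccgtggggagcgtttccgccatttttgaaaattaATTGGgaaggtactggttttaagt
NUPL2: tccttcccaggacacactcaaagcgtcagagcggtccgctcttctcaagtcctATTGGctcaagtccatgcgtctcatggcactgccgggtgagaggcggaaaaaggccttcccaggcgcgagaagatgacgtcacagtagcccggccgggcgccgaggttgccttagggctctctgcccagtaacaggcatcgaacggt
KPNA2: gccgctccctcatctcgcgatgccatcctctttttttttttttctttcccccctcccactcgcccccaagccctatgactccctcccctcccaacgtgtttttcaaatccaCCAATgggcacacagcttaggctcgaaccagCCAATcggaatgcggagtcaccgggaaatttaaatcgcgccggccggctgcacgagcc
NUTF2: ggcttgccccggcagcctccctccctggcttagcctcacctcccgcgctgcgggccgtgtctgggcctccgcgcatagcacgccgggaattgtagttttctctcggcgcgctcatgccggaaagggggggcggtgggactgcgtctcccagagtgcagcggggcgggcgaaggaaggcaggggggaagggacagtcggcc
KPNA2 held the CCAAT letters at 2 places. NUP35 and NUPL2 held them on the other strand, NUP35 also held the ETS letters, and the stretch of NUTF2 held neither motif. The GC content was highest for NUTF2, at 71%, followed by NUPL2, KPNA2 and NUP35, and the 4 stretches shared no single feature among those searched.

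Over the 250 bases upstream, 48 members with 62 start sites could be matched to RefSeq promoters, and KPNA4, KPNA5, KPNB1, NUP43, RANBP1 and XPO7 were not. CCGGAAG or CTTCCGG stood in 25.8% of these stretches, in 15 genes, against 8.52% of all 35116 promoters. The 15 genes included NUP107, NUP160, NUP37, SEC13 and SEH1L of the Y complex, while NUP133 and NUP85 of that complex held neither. The 35116 are all promoters listed, whether or not their genes were detected in these libraries. GCATGCG or CGCATGC, core letters of the site of NRF1, stood in 9.68% against 3.39%, in RCC1, IPO11, NUP107, TNPO2, NUP62 and NUP50. CCAAT or ATTGG stood in 38.7% against 32.0%, and TATAAA or TTTATA in 6.45% against 10.7%. The median GC content was 63% in the members' stretches and 58% in all promoters, and matches of GC-rich letters move with it. Its part in these shares was not tested. The NRF1 letters can overlap themselves on opposite strands, and each promoter was counted once a motif. A match describes the letters only.

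Levels of the members spread over a 35.1-fold range, and every member was detected in every library, with at least 7 counts. All 54 passed the filter on low counts. The median level was 104 CPM, against 45.9 CPM over all genes tested, 48 members lay above that value, and 39 lay between 50 and 200 CPM. Because a transcript gives a 5' end whatever its length, CPM is read here as a level per transcript. Levels per kilobase of the annotated transcript are given beside it, since long transcripts may be copied to their 5' end less often. Across the 54 genes, the level in log2 CPM and transcript length in log2 kilobases, from 1.39 to 11.7 kb, had a Pearson's r of -0.16 and a Spearman's rho of -0.041. Genes are not independent replicates and all levels share the same libraries.

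**Figure D3:**
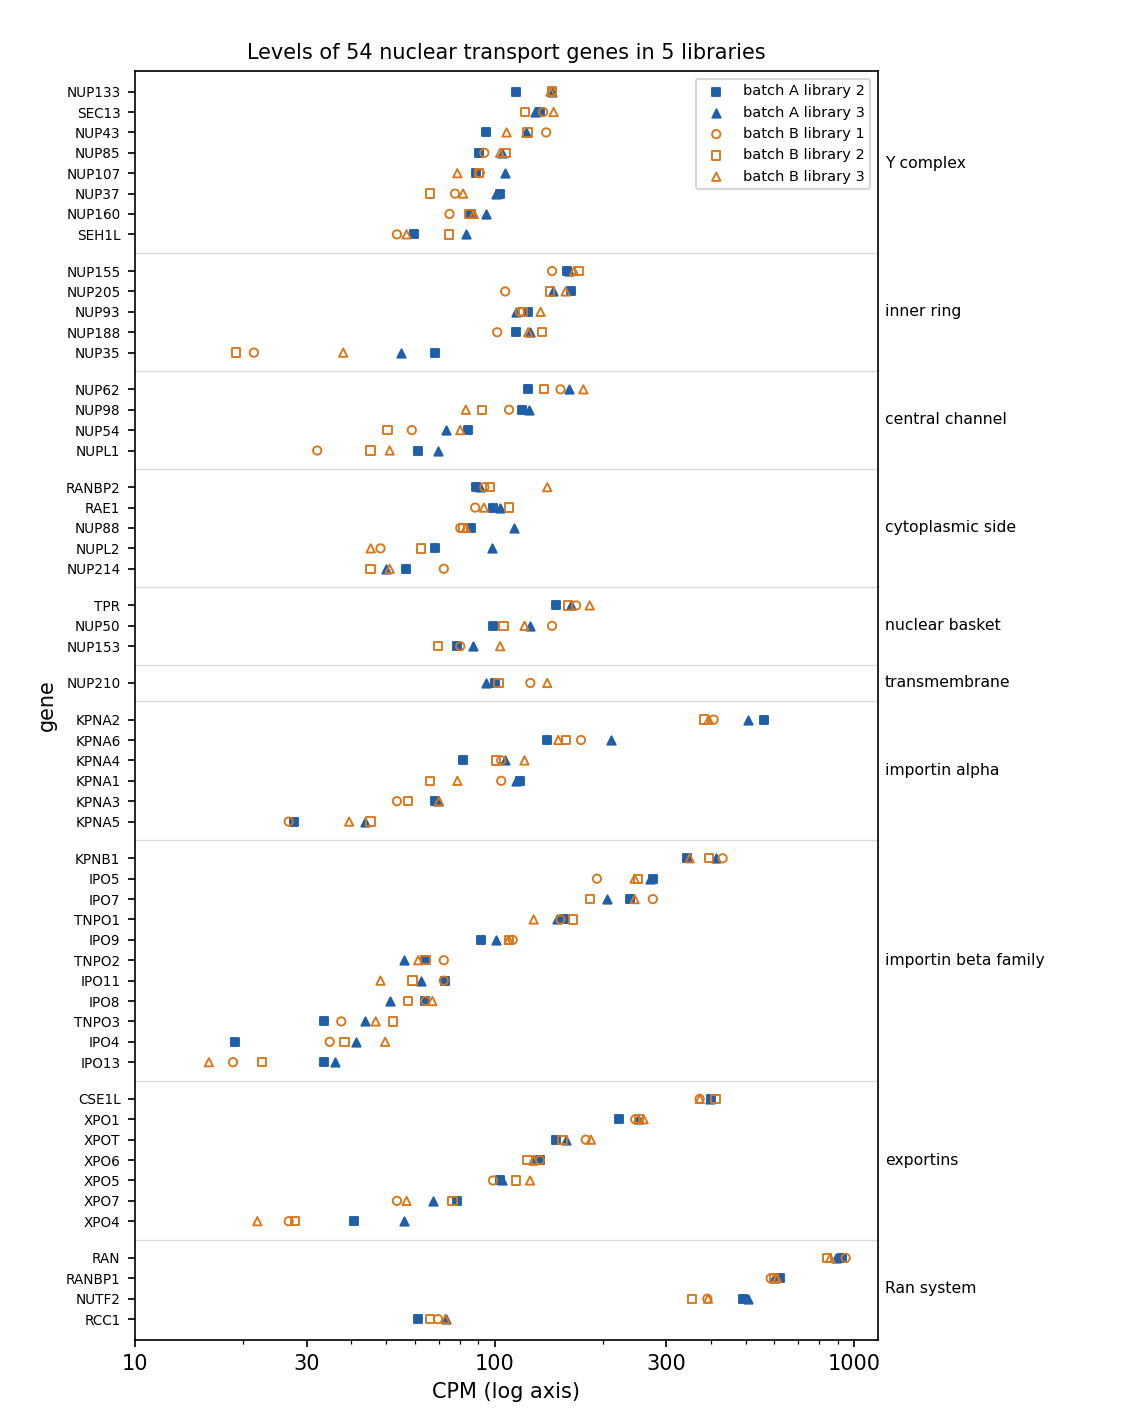
CPM of each member (x axis, log scale) in the 5 libraries, with genes on the y axis grouped by role and ordered by mean level. RAN and RANBP1 lie to the right of all other members in every library, and most nucleoporins lie between 50 and 200 CPM.

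The Ran system held the highest levels. RAN stood at 927 and 889 CPM in batch A libraries 2 and 3 and at 947, 839 and 858 CPM in batch B libraries 1, 2 and 3. RANBP1, which helps to take RAN off transport receptors in the cytoplasm, stood at 623 and 599 CPM in batch A and at 586, 598 and 610.1 CPM in batch B. The ranges of RAN, of RANBP1 and of the third-ranked gene did not overlap over the 5 libraries, so RAN was first and RANBP1 next in each library. Per kilobase the order was reversed, with 434 CPM per kb for RANBP1 and 335 for RAN, and both stayed ahead of NUTF2 and KPNA2, at 184 and 183. The log2 fold changes between the batches were -0.02 (SE 0.11) for RAN and -0.0027 (SE 0.11) for RANBP1, and the 95% intervals ran from -0.24 to 0.20 and from -0.22 to 0.21.

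RCC1, the chromatin-bound exchange factor that loads RAN with GTP, was the lowest of the Ran system, with 61.1 and 73.5 CPM in batch A libraries 2 and 3 and 69.6, 66.0 and 73.0 CPM in batch B libraries 1, 2 and 3. Its mean of 68.6 CPM was 13.0 times below that of RAN, and its log2 fold change was 0.07 (SE 0.21). These 4 genes made up 24.5% of the members' counts. Their summed share of gene counts was 0.209% ± 0.00243 (SD, n = 2) for batch A and 0.193% ± 0.00682 (SD, n = 3) for batch B. This sum includes NUTF2, which was called as lower, while RAN, RANBP1 and RCC1 were not called. Rows of 5 RAN pseudogenes held 23 counts in all, against 2776 of RAN. The row of NUTF2P2 held 3, against 1365 of NUTF2, and adding such rows kept the call of NUTF2.

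The importin alpha adaptors link cargo with a classical signal to KPNB1. KPNA2 stood above the other 5 genes of the family in every library, and the lowest was KPNA5, at 27.7 and 43.6 CPM in batch A libraries 2 and 3 and 26.8, 45.2 and 39.4 CPM in batch B libraries 1, 2 and 3. KPNA6 had a mean of 167 CPM, KPNA4 of 103, KPNA1 of 96.3 and KPNA3 of 63.8. KPNA2 gave 56.4% of importin alpha counts in batch A library 2 (95% exact binomial interval 52.5 to 60.1), 48.2% in batch A library 3 (44.7 to 51.6), and 46.8% (41.2 to 52.4), 47.2% (42.6 to 51.9) and 46.2% (42.1 to 50.3) in batch B libraries 1, 2 and 3. The intervals, which cover counting error only, overlapped for all libraries but batch A library 2. KPNA6 gave 14.0% of importin alpha counts in that library and 17.6% to 20.0% in the other 4.

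**Figure D4:**
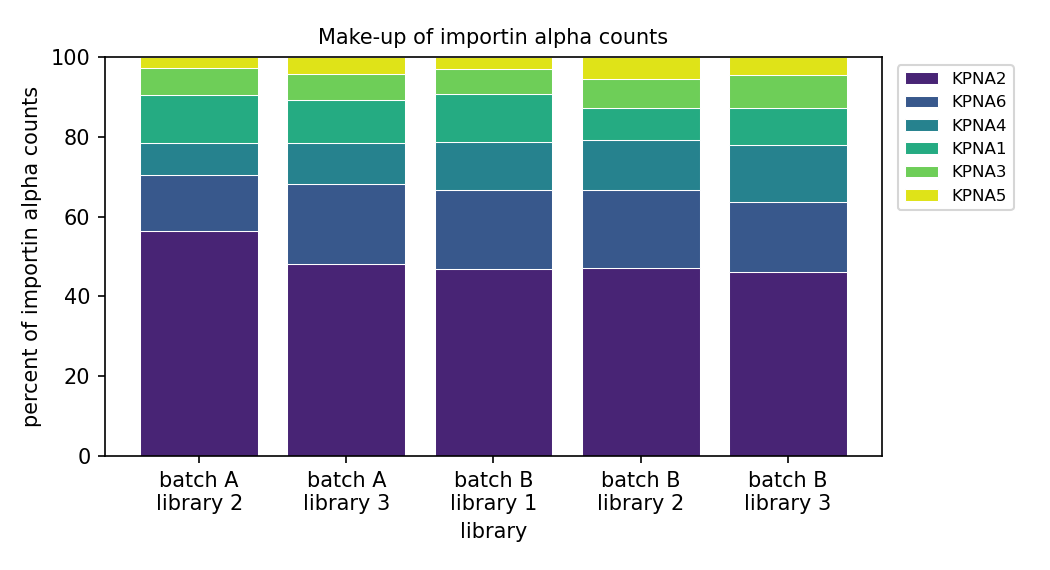
Share of each importin alpha gene in the summed importin alpha counts (y axis, percent) of each library (x axis). KPNA2 makes up 56.4% in batch A library 2 and 46.2% to 48.2% in the other libraries.

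KPNA1, an importin alpha of broad expression, had 118 and 115 CPM in batch A libraries 2 and 3 and 104, 66.0 and 78.8 CPM in batch B libraries 1, 2 and 3. Its libraries did not overlap, but its log2 fold change of -0.51 (SE 0.18) did not pass (edgeR adjusted p = 0.0889). Without batch B library 1 it was -0.66 and passed (edgeR adjusted p = 0.025). It passed in no other fit that left out a library. The value was -0.37 without batch B library 2 (edgeR adjusted p = 0.387) and -0.46 without batch B library 3 (edgeR adjusted p = 0.255). KPNA4 had a log2 fold change of 0.23, KPNA5 of 0.11, KPNA3 of -0.14 and KPNA6 of -0.14, all without a call. The summed importin alpha share of gene counts was 0.102% ± 0.00388 (SD, n = 2) for batch A and 0.0844% ± 0.0031 (SD, n = 3) for batch B. The lowest batch A library, at 0.0997%, lay above the highest of batch B, at 0.087%. KPNA2, which was called as lower, is the largest part of this sum.

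The importin beta family bind cargo and RAN directly. KPNB1, the partner of importin alpha, led it with 344 and 412 CPM in batch A libraries 2 and 3 and 431, 394 and 349 CPM in batch B libraries 1, 2 and 3, and the batches overlapped. IPO5 and IPO7, which import ribosomal proteins and histones among other cargo, had means of 247 and 229.6 CPM, and TNPO1, the receptor of hnRNP A1, of 150.2. The rest lay from 105 CPM for IPO9 down to 25.4 for IPO13. IPO13, which can import and export, had 33.5 and 36.1 CPM in batch A libraries 2 and 3 and 18.7, 22.6 and 16.1 CPM in batch B libraries 1, 2 and 3. All batch B libraries were lower, from 7, 13 and 11 counts, and the log2 fold change of -0.85 (SE 0.37) did not pass (edgeR adjusted p = 0.197).

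IPO4 had 18.9 and 41.1 CPM in batch A libraries 2 and 3 and 34.8, 38.2 and 49.6 CPM in batch B libraries 1, 2 and 3. The low value of batch A library 2 stood alone, and the log2 fold change of 0.47 (SE 0.30, edgeR adjusted p = 0.459) was 0.08 without that library and 1.14 without batch A library 3. The family's summed share of gene counts was 0.141% ± 0.00267 (SD, n = 2) for batch A and 0.141% ± 0.00499 (SD, n = 3) for batch B. KPNB1 had a log2 fold change of 0.05 (SE 0.11), with a 95% interval of -0.16 to 0.26.

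Exportins bring proteins and RNAs out of the nucleus, and CSE1L returns importin alpha to the cytoplasm. CSE1L had 399 and 397 CPM in batch A libraries 2 and 3 and 372, 412 and 372 CPM in batch B libraries 1, 2 and 3, a range that overlapped that of KPNB1 and of KPNA2. XPO1, the receptor of leucine-rich export signals, had 221 and 250.3 CPM in batch A and 246, 252 and 259.8 CPM in batch B. XPOT, the exportin of tRNA, had a mean of 165 CPM, and XPO6, the exportin of actin, of 129.6, and XPO5, the exportin of microRNA precursors, of 109. Per kilobase CSE1L stayed first among the exportins and XPO1 next, at 109.9 and 50.03 CPM per kb.

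XPO4 was the lowest exportin, with 40.8 and 56.0 CPM in batch A libraries 2 and 3 and 26.8, 27.8 and 21.9 CPM in batch B libraries 1, 2 and 3. The batches did not overlap, and the log2 fold change of -0.93 (SE 0.30, edgeR adjusted p = 0.0518) missed the threshold. It passed with library totals as scaling (-0.95, edgeR adjusted p = 0.0443) and with a mean count of at least 20 as the filter (-0.92, edgeR adjusted p = 0.0419). It passed in none of the other alternatives. The value ran from -0.63 after thinning (edgeR adjusted p = 0.485) to -1.10 without batch A library 2. The levels of batch B rest on 10, 16 and 15 counts. The log2 fold changes of CSE1L, XPO1, XPO5, XPO6, XPO7 and XPOT lay between -0.18 and 0.19. The summed share of the exportins was 0.114% ± 0.00257 (SD, n = 2) for batch A and 0.114% ± 0.00265 (SD, n = 3) for batch B.

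Of the 2 parts of the scaffold, the Y complex had the narrower range of mean levels, and that of the inner ring was 3.98-fold. In the Y complex, from NUP133 at a mean of 138 CPM to SEH1L at 65.7 CPM, the range was 2.11-fold. NUP133 had 115 and 144 CPM in batch A libraries 2 and 3 and 145, 144 and 143 CPM in batch B libraries 1, 2 and 3, and SEH1L had 59.7 and 83.4 CPM in batch A and 53.5, 74.7 and 56.9 CPM in batch B. The means of SEC13, which also serves in vesicle coats, NUP43, NUP85, NUP107, NUP37 and NUP160 lay between these, and each gene's range over the libraries overlapped that of the gene next to it in order. NUP37 had the most negative log2 fold change of the complex, at -0.42 (SE 0.19, edgeR adjusted p = 0.231), and the median over the 8 genes was -0.01.

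In the inner ring, NUP155 had 159 and 161 CPM in batch A libraries 2 and 3 and 145, 172 and 166 CPM in batch B libraries 1, 2 and 3. NUP205, NUP93 and NUP188 followed at means of 143, 122 and 120.4 CPM. NUP35, at a mean of 40.3 CPM, was 3.98 times below NUP155, and per kilobase it stood at 24.7 CPM per kb against 19.7 for NUP155, so that this order depended on the scale. NUP35 gave 10.9% and 9.11% of inner ring counts in batch A libraries 2 and 3 and 4.35%, 3.24% and 6.12% in batch B libraries 1, 2 and 3. The other 4 genes had log2 fold changes from -0.11 for NUP205 to 0.10 for NUP93.

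Among the channel nucleoporins, NUP62 had 124 and 161 CPM in batch A libraries 2 and 3 and 153, 137 and 177 CPM in batch B libraries 1, 2 and 3. NUP54 and NUPL1, its partners in the channel complex, had means of 69.5 and 51.8 CPM. NUPL1 had 61.1 and 69.7 CPM in batch A and 32.1, 45.2 and 51.1 CPM in batch B, without overlap, and its log2 fold change of -0.54 (SE 0.24, edgeR adjusted p = 0.214) passed only when libraries were thinned (-1.09, edgeR adjusted p = 0.0193). NUP98, whose transcript also encodes the Y complex protein Nup96, had a log2 fold change of -0.37 (SE 0.17, edgeR adjusted p = 0.233), and NUP62 one of 0.15 (SE 0.14). The median over the 4 genes was -0.32, with 3 of 4 values below 0.

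On the cytoplasmic side, RANBP2, the large filament protein that binds RAN, had 88.8 and 90.9 CPM in batch A libraries 2 and 3 and 93.7, 97.3 and 140.1 CPM in batch B libraries 1, 2 and 3. Batch B library 3 stood above the rest, and the log2 fold change of 0.36 (SE 0.18, edgeR adjusted p = 0.272) did not pass. RANBP2 has close copies in the genome, and reads may be shared between them, so its level is uncertain. Rows named RGPD, the symbol of these copies, were looked for and 0 were found. NUP214, which docks XPO1 and the mRNA export helicase DDX19B, was the lowest of the group, at 56.8 and 49.8 CPM in batch A and 72.3, 45.2 and 51.1 CPM in batch B. RAE1, an mRNA export factor, and NUP88, the partner of NUP214, had means of 98.7 and 88.9 CPM.

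In the nuclear basket, TPR, which forms its filaments, had 148 and 163 CPM in batch A libraries 2 and 3 and 169, 159.9 and 184 CPM in batch B libraries 1, 2 and 3. NUP153, which anchors the basket, was the lowest of the 3 genes, at 78.6 and 87.2 CPM in batch A and 80.3, 69.5 and 104 CPM in batch B. The log2 fold changes of TPR, NUP50 and NUP153 were 0.16, 0.12 and 0.07, none of them called. NUP210, the transmembrane nucleoporin, had 100.5 and 94.6 CPM in batch A libraries 2 and 3 and 126, 103 and 140.1 CPM in batch B libraries 1, 2 and 3. The batches did not overlap, and the log2 fold change of 0.36 (SE 0.17, edgeR adjusted p = 0.238) did not pass.

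Within a batch the members varied little beyond sampling. The chi-square statistic of counts within batches, per degree of freedom, had a median of 0.82 over the members and 0.98 over all genes tested, where sampling alone gives 0.789. The highest values, named after they were seen, were those of KPNA6 (3.75), IPO7 (3.67) and KPNB1 (3.03), and NUP35 and NUPL2 had 1.94 and 1.95. KPNA6 had 140 and 210.4 CPM in batch A libraries 2 and 3, and IPO7 had 276, 184 and 245 CPM in batch B libraries 1, 2 and 3.

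Other genes of the pore, of the RAN cycle and of mRNA export, from a list of 39 genes in the table, were set beside the members. Of 38 tested, 2 were lower in batch B, none higher, and 36 did not pass (median log2 fold change -0.07). The share called was 5.26%, near the 4.20% of all genes tested, and 6 genes (15.8%) had an unadjusted p under 0.05, near the 16.4% of all genes. MAD2L1, a spindle checkpoint protein that binds at the pore between divisions, had 272 and 268 CPM in batch A libraries 2 and 3 and 149.9, 224 and 201 CPM in batch B libraries 1, 2 and 3. It fell by 0.43 on the log2 scale (SE 0.12, edgeR adjusted p = 0.0173), and of the 5 fits that left out a library only that without batch B library 2 kept the call (edgeR adjusted p up to 0.192 in the others). The most abundant genes of the list, THOC2 of the THO complex and ENY2 of the mRNA export complex TREX-2, had means of 264 and 252 CPM and log2 fold changes of 0.36 and -0.19, without a call.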

How the data were processed

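RNA from HEK293 cells was read in 2 libraries of batch A and 3 of batch B. The authors deposited whole-number counts per gene symbol, not normalized. The submitters' processing notes name cutadapt 1.2.1, STAR 2.4.0a and the builds hg19 and GRCh37. The sources used here do not give the counting tool, the annotation, the use of strand or whether molecular identifiers were collapsed. Reads of pseudogenes, paralogs and overlapping or antisense genes may therefore be shared. The exact binomial intervals cover counting error only, while those from edgeR also hold the spread that it fitted.

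Each column was put in a batch by its name, which starts like the titles of that batch. CPM were computed from gene counts without the 52 spike-ins, and the limit that 0 counts allow, set at 3 counts, ran from 3.74 CPM (deepest library) to 8.03 CPM (shallowest). All genes were tested with edgeR 4.0.16 in R 4.3.3: filterByExpr, TMM scaling, quasi-likelihood F tests of the batch with no other covariate, and Benjamini-Hochberg adjustment over 9215 genes that held 97.1% of gene counts. The prior degrees of freedom were infinite for all of them, so no gene had a spread of its own. Standard errors were taken as the size of the log2 fold change over the root of F, and 95% intervals use 1.96 of them. A fit left with a single batch A library assumes that it varies like those of batch B.

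Members, roles and lists were chosen with earlier results of these data known. Named genes are every called member, the highest and lowest of each role, the 5 largest changes that did not pass, and the called and 2 most abundant genes of each further list. Transcript lengths are those of the principal coding transcript in GENCODE 29, matched by name for all 54 members. Alternatives were DESeq2 1.42.0 (size factors, Wald test), limma-voom (limma 3.58.1), library totals, other filters, thinning, pseudogene rows added, leaving out each library and, chosen after seeing the data, the number that ends each column as a block. The values of 1 called gene of the further lists are not reported here.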

Additional observations from a re-analysis of the deposited data

How the results depend on the processing

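The count of 4 called members, all lower, was 2 with the DESeq2 Wald test, of 38 members given an adjusted p, and 0 to 4 when a library was left out. With the other 8 alternatives it was 3 to 5, and no member was called as higher in any fit. Over all genes the count of 387 was 111 with DESeq2, 199 after thinning, and 138, 152 and 202 without batch A library 2, batch A library 3 and batch B library 2. KPNA2 kept its call in 12 of 14 alternatives, NUP35 in 11 of 13, NUTF2 in 10 of 14 and NUPL2 in 3 of 13. Over all 54 members, the sign changed for 6 under thinning, for 4 to 9 when a library was left out and for at most 4 under each other alternative, none of them a called member and none with a size over 0.19. Among the uncalled genes that the text names by rule, thinning turned KPNB1 to -0.053 and CSE1L to 0.054 on the log2 scale. Leaving out a library gave ranges that crossed 0 for SEH1L (-0.37 to 0.067), NUP214 (-0.12 to 0.18), NUP153 (-0.12 to 0.21), KPNA5 (-0.13 to 0.47), KPNB1 (-0.045 to 0.17), CSE1L (-0.073 to 0.038), RAN (-0.084 to 0.036) and RCC1 (-0.028 to 0.19). The difference in summed share, batch B minus batch A, ranged from -0.00766 to 0.00383 percentage points for the Y complex and from -0.00584 to -0.00016 for the cytoplasmic side, and with the 9 other sums it moved by less than the spread between libraries. The causes were not tested. Genes under about 30 CPM rest on few counts a library. The planned block on the labels' replicate numbers was not run, since the columns of batch A end in 2 and 3 while its titles number replicates 1 and 2. A replicate block on the number that ends each column, chosen after seeing the data and with 1 residual degree of freedom, gave 4 called members, all lower, and 394 genes in all. KPNA2, NUP35 and NUTF2 kept their calls, NUPL2 lost it (-0.65, edgeR adjusted p = 0.0858), KPNA1 gained one (-0.66, 0.0291), and KPNB1 turned to -0.032 and NUP214 to -0.12. Of the genes outside the members that the text names, MAD2L1, LMNA, EMD and BANF1 lost their calls under this block, with edgeR adjusted p of 0.0854, 0.0666, 0.0853 and 0.097. Libraries that share a final number did not deviate together (correlations of 0.011 and -0.017 across 9215 genes).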

Other observations

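The nuclear lamina and the inner nuclear membrane, to which pores are anchored, were described with a list of 15 genes. Of 14 tested, 2 were higher and 2 lower in batch B and 10 did not pass, with a median log2 fold change of 0.17 (28.6% called, against 4.20% of all genes tested). LMNA, which encodes the A-type lamins, had 39.3 and 49.8 CPM in batch A libraries 2 and 3 and 74.9, 71.2 and 75.9 CPM in batch B libraries 1, 2 and 3, and rose by 0.74 on the log2 scale (SE 0.23, edgeR adjusted p = 0.0405). EMD, which encodes emerin, had 69.9 and 104.6 CPM in batch A and 128, 139 and 115 CPM in batch B and rose by 0.54 (SE 0.17, edgeR adjusted p = 0.0415). TOR1A, the torsin ATPase of the nuclear envelope lumen, had 71.3 and 72.2 CPM in batch A and 40.1, 26.1 and 40.9 CPM in batch B and fell 1.99-fold (edgeR adjusted p = 0.0042). BANF1, which links chromatin to the envelope, had 514 and 491 CPM in batch A and 262, 445 and 407 CPM in batch B, where library 1 stood below the others, and fell 1.29-fold (edgeR adjusted p = 0.0193). Without batch B library 1 its log2 fold change was -0.23 (edgeR adjusted p = 0.279).

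The calls of these 4 genes were not kept in every fit that left out a library, where fewer genes were called over all genes too. Among these 5 fits, LMNA was called in none, EMD in 2, TOR1A in 2 and BANF1 in 2. Over all alternatives, the log2 fold change ran from 0.62 to 0.91 for LMNA and from 0.33 to 0.86 for EMD. It ran from -1.12 to -0.80 for TOR1A and from -0.50 to -0.23 for BANF1. TMPO, which encodes the lamina-associated LAP2 proteins, had a mean of 251 CPM and a log2 fold change of 0.08 (SE 0.12), without a call.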
